A study of Mus musculus with 24 samples.

Results

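The 10 genes described here are Foxd3, Sox10, Snai2, Tfap2a, Pax3, Pax7, Msx1, Msx2, Ngfr and Zic1, genes of the neural crest and of the dorsal neural tube, taken by name from the count tables, which hold 51912 genes each. Their expression was followed in 9 RNA-seq libraries, 3 of each of 3 groups of mouse cells. ESCs were wild type embryonic stem cells of the strain C57BL/6 X 129S5. NPs were neuronal progenitors of the same strain and genotype, derived from ESCs through cellular aggregates and treatment with retinoic acid. TET TKO ESCs carried a TET1/2/3 triple knockout on the strain C57BL/6 X 129/sv, so genotype, strain and cell line cannot be told apart in any comparison with ESCs. The study used this system to ask how transcription factors that bind DNA affect its methylation, and the RNA-seq gives the expression of such factors in each cell type. Nothing in the labels says whether the 3 libraries of a group came from separate cultures, so p-values measure the spread between these libraries.

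The neural crest arises at the border between the neural plate and the surface ectoderm, at the dorsal edge of the closing neural tube. Border genes, among them Pax3, Pax7, Zic1, Msx1, Msx2 and Tfap2a, encode transcription factors of this region, and several of them stay on in the dorsal neural tube. Specifier genes such as Foxd3, Snai2 and Sox10 are switched on as crest cells form, leave the epithelium and migrate, and Ngfr encodes the neurotrophin receptor p75, a surface marker of migrating crest. Foxd3 is also known as a gene of pluripotent cells, where its factor acts in the maintenance of the stem cell state.

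In NPs, 5 of the 6 border genes were higher than in ESCs and Foxd3 was lower by the limits of the test. Of all tested genes, 12.4% were higher and 9.98% lower by the same limits. Pax3, Pax7, Msx1 and Zic1 reached 1 RPKM only in NPs, so the count is not read against these shares. Snai2, Sox10 and Tfap2a were not separated from ESCs by the limits, and Ngfr, 2.97-fold lower, lay just under the 3-fold limit. The border genes Zic1, Pax3, Msx1 and Pax7 went from less than 0.17 RPKM in every ESC library to more than 3.6 RPKM in every NP library. In ESCs, Foxd3 and Ngfr were the only members with a mean of at least 1 RPKM (RPKM, counts scaled by exon length, library size and TMM, the scaling of edgeR), against 8 of the 10 genes in NPs and 3 in TET TKO ESCs.

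Total counts ran from 20519702 to 23976914 in the ESC and NP libraries and from 80704741 to 93210102 in the TET TKO libraries, so a gene at a given RPKM is counted with less error in the latter. Pou5f1, which encodes the pluripotency factor OCT4, had a mean of 393 RPKM in ESCs, against 1.09 in NPs and 296 without the TET enzymes. Pax6, a neural progenitor gene, had 0.350, 14.7 and 0.259 RPKM in the same order. Of the knocked-out genes, Tet1 was lower in TET TKO ESCs by 2.38 and Tet2 by 3.05 on the log2 scale, while Tet3, at 0.715 RPKM in ESCs and 0.551 in TET TKO ESCs, did not pass the expression filter. Counts over the whole gene do not show the deleted part.

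The sequence before the transcription start is shown for Zic1, the member with the largest rise in NPs, for Msx1, the border gene with the highest level in NPs, and for Foxd3 and Ngfr, the genes with the highest levels in ESCs, because these carry the opposite patterns described below. The RefSeq promoter table (GRCm38.p6) held 7 of the 10 genes, without Pax3, Sox10 and Snai2. The window is the 250 bases before the start, read 5′ to 3′ on the gene's strand, and bases that lie in an annotated exon were cut off, which left 208 bases of Zic1, 250 of Msx1, 250 of Foxd3 and 213 of Ngfr. Capitals mark E-box letters, CANNTG, the class of site bound by SNAI2 and other E-box factors.
Zic1, chr9:91365811-91366018, minus strand: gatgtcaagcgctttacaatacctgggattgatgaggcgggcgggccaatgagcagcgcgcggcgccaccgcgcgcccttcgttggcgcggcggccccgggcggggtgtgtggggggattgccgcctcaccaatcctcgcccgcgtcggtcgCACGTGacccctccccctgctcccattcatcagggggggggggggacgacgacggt
Msx1, chr5:37824586-37824835, minus strand: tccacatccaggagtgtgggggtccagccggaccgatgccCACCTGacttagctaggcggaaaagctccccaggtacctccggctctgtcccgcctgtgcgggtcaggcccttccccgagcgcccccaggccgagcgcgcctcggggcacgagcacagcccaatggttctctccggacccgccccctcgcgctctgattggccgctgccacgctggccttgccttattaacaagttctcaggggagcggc
Foxd3, chr4:99656049-99656298, plus strand: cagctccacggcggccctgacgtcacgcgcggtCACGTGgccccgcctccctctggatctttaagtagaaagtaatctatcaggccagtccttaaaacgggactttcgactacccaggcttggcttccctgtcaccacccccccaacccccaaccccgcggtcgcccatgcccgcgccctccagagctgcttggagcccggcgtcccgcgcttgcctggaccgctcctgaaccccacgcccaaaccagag
Ngfr, chr11:95587736-95587948, minus strand: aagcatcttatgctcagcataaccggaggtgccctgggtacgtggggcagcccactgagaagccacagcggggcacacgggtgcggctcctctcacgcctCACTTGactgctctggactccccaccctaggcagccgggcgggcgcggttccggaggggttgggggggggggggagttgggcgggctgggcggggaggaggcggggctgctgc

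E-box letters stood in 5 of the 8 member windows (Tfap2a has 2 starts in the table), namely those of Zic1, Msx1, Msx2, Foxd3 and Ngfr, against 66.2% of all 32851 promoter windows of the same length. The match was CACGTG in Zic1, from −98 to −93, and in Foxd3, from −217 to −212, and CACCTG in Msx1, from −210 to −205. The retinoic acid receptor half-site AGGTCA and the SOX letters CATTGT, searched on both strands, were in none of the 8 windows and in 14% and 10.7% of all windows. CG dinucleotides were more frequent than in most promoters, with 27 in the window of Zic1, 21 in Foxd3, 20 in Msx1, 16 in Msx2, 16 in Ngfr, 13 in Pax7 and 10 in each Tfap2a window, against a median of 6 over all windows. These matches are descriptions of the letters and say nothing on binding.

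The comparison of NPs with ESCs asks how the genes changed as ESCs became neuronal progenitors. It was tested with edgeR's quasi-likelihood test over the 15197 genes with at least 1 RPKM in at least 1 library, and a gene was said to rise or fall when its p, adjusted by Benjamini-Hochberg, was under 0.001 and its change 3-fold or more. Of all tested genes, 22.3% were called, 12.4% as higher and 9.98% as lower. Of the 10 members, 9 passed the expression filter, and 5 of these were called higher and 1 lower. Pax3, Pax7, Msx1 and Zic1 reached 1 RPKM only in NPs and so could enter the test only if they differed, and the count is therefore not read against the background. Without the expression filter all 10 genes were tested, the same 5 were called higher and Foxd3 lower, and 16.7% of 31654 genes were called. DESeq2 called 7 of the 9, the same 6 and Ngfr, and 25.6% of all genes. At an adjusted p under 0.05 with no limit on the fold, 8 of the 9 and 64.1% of all genes differed, and at an unadjusted p under 0.05, 8 and 67.5%.

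Zic1, a zinc finger factor of the neural plate border and dorsal neural tube, had 1458, 1065 and 1584 counts in the 3 NP libraries and 2, 2 and 0 counts in ESCs. The NP libraries all lay far above ESCs, at 12.0, 7.70 and 12.0 RPKM, and the ESC library without a read allows up to 0.0214 RPKM, the level of 3 counts. Its fitted log2 fold change was 9.85 ± 0.45 (SE, n = 3 and 3; edgeR adjusted p = 1.09e-06), the 42nd largest rise of all tested genes. With so few reads in ESCs the fitted value depends on the prior count, and the ratio of the summed counts, scaled by library size, was 1011, with an exact counting interval (95%) from 395 to 3712. Intervals of this kind cover counting error only.

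Pax3 and Pax7 encode paired box factors of the dorsal neural tube. Pax3 had 889, 1145 and 2002 counts in NPs and 2, 3 and 0 in ESCs, which is 6.74, 7.61 and 13.96 RPKM against at most 0.0222 RPKM. Every NP library stood above every ESC library, and NP replicate 3 had most Pax3. Its log2 fold change was 9.51 ± 0.57 (edgeR adjusted p = 4.03e-06), and the ratio of summed counts was 795, with a counting interval from 340 to 2449. Pax7 had 1534, 516 and 899 counts in NPs, or 12.3, 3.62 and 6.62 RPKM, and 21, 18 and 20 counts in ESCs, or 0.168, 0.141 and 0.139 RPKM. The groups did not overlap, and within NPs the library with most Pax7 was replicate 1, the one with least Pax3. The log2 fold change of Pax7 was 5.63 ± 0.50 (edgeR adjusted p = 2.61e-05). ESCs held more Pax7 than Pax3, and the rise of Pax7 was the smaller.

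Msx1 and Msx2 encode homeodomain factors that act downstream of BMP signals at the dorsal midline. Msx1 was the member with the highest level in NPs, at 25.2, 35.5 and 27.7 RPKM (1666, 2675 and 1988 counts), against 0.0910, 0.133 and 0.118 RPKM in ESCs (6, 9 and 9 counts). Its log2 fold change was 7.97 ± 0.24 (edgeR adjusted p = 2.99e-07), with the smallest SE among the members that rose. Msx2 started higher, at 1.03, 0.866 and 0.546 RPKM in ESCs, and reached 8.40, 4.66 and 6.25 RPKM in NPs, again without overlap. Its log2 fold change of 2.97 ± 0.32 (7.83-fold; edgeR adjusted p = 8.24e-05) was the smallest of the 5 rises.

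Tfap2a encodes the AP-2α factor of the border, the crest and the surface ectoderm. It had 3.02, 1.27 and 1.90 RPKM in NPs and 0.942, 1.07 and 0.301 RPKM in ESCs. The NP libraries were all above the ESC libraries, but by a small margin, and the log2 fold change of 1.41 ± 0.50 gave an edgeR adjusted p of 0.0360, short of the limit. Of its exon bases, 3.42% are shared with Gm26688 on the opposite strand, which had at most 15 counts in a library. The reads were counted without strand, and Zic1 likewise shares 1.05% of its exon bases with Zic4, which had 173, 90 and 115 counts in NPs.

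**Figure D1:**
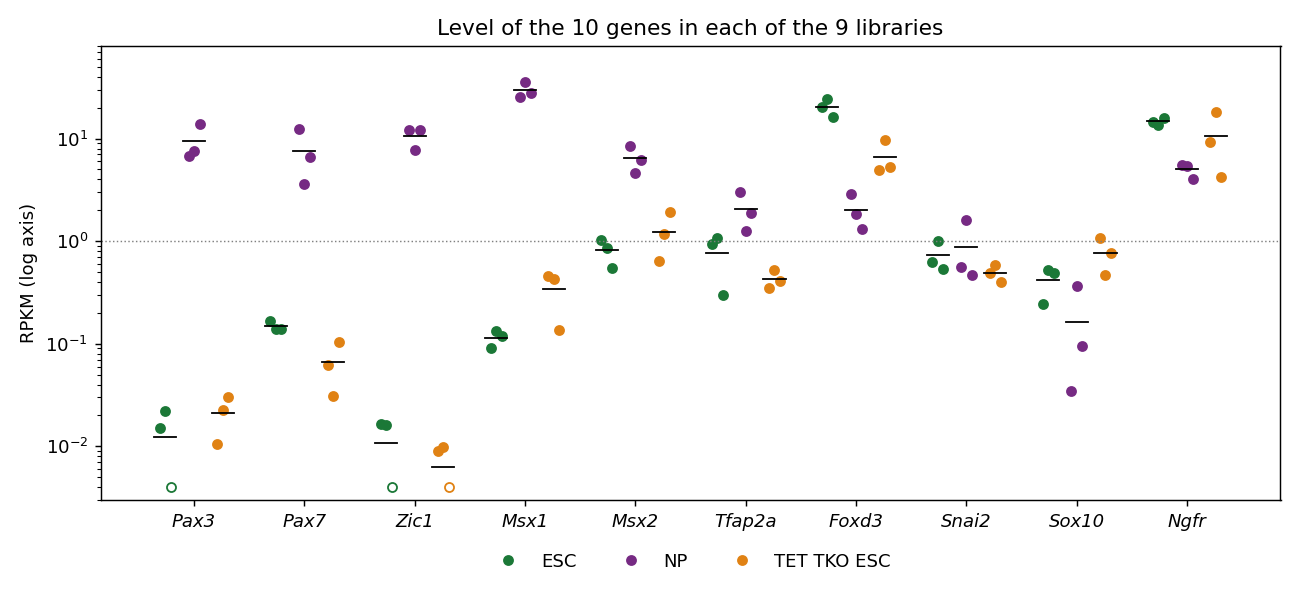
RPKM of the 10 genes (log axis) in each ESC, NP and TET TKO ESC library; points are libraries, black lines are group means, open points at the bottom are libraries with 0 counts, and the dotted line is 1 RPKM. Pax3, Pax7, Zic1 and Msx1 lie above 3.6 RPKM in every NP library and at or below 0.461 RPKM in all others, while Foxd3 and Ngfr are highest on average in ESCs.

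Among the specifier genes, Foxd3 fell. It had 20.5, 24.2 and 16.2 RPKM in ESCs (1016, 1229 and 926 counts) and 2.91, 1.84 and 1.30 RPKM in NPs (144, 104 and 70 counts). The groups were wide apart, and the log2 fold change was −3.35 ± 0.30 (10.2-fold lower; edgeR adjusted p = 2.92e-05). Of its exon bases, 3.83% are shared with Gm23366, which had 0 counts in every library. Even so, Foxd3 kept a mean of 2.02 ± 0.818 RPKM (SD, n = 3) in NPs, above the means of Snai2 (0.881) and Sox10 (0.165). Its range over the NP libraries overlapped that of Snai2 but not that of Sox10. Bulk RNA does not tell fewer cells with a transcript from less RNA in each cell, here and in all later results.

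Snai2, which encodes a repressor active when crest cells leave the epithelium, had 0.625, 1.01 and 0.541 RPKM in ESCs and 0.555, 1.62 and 0.467 RPKM in NPs. The ranges overlapped, and the log2 fold change was 0.27 ± 0.52 (edgeR adjusted p = 0.674). The value rested on NP replicate 2, with 80 counts against 24 and 22. Without that library the log2 fold change was −0.52 (edgeR adjusted p = 0.291). Sox10, the factor of migrating crest and of glia, was the lowest member in NPs, with 2, 24 and 6 counts against 14, 31 and 33 in ESCs. It stayed under 1 RPKM in all 6 libraries, so only the fit without the filter gave a value, a log2 fold change of −1.33 ± 0.55 (edgeR adjusted p = 0.0556), and again NP replicate 2 had most reads. That library also had the highest Meox1 (23.8 RPKM against 8.83 and 4.76) and the highest sum of pluripotency markers (29.8 against 12.2 and 8.12 RPKM), and their part in its Snai2 and Sox10 counts was not tested.

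Ngfr was at 14.6, 13.6 and 15.9 RPKM in ESCs and at 5.57, 5.41 and 4.02 RPKM in NPs. The NP libraries were all lower, by 1.57 ± 0.16 on the log2 scale (edgeR adjusted p = 5.61e-05), a 2.97-fold difference that lay just under the 3-fold limit, so Ngfr was not called. It crossed the limit with DESeq2 (log2 fold change −1.61), with a filter of 10 counts in every library (−1.59), without ESC replicate 2 (−1.63), without NP replicate 1 (−1.66) and without NP replicate 2 (−1.64). The call of Ngfr therefore depends on these choices, while it was lower in NPs under all of the alternatives tried.

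**Figure D2:**
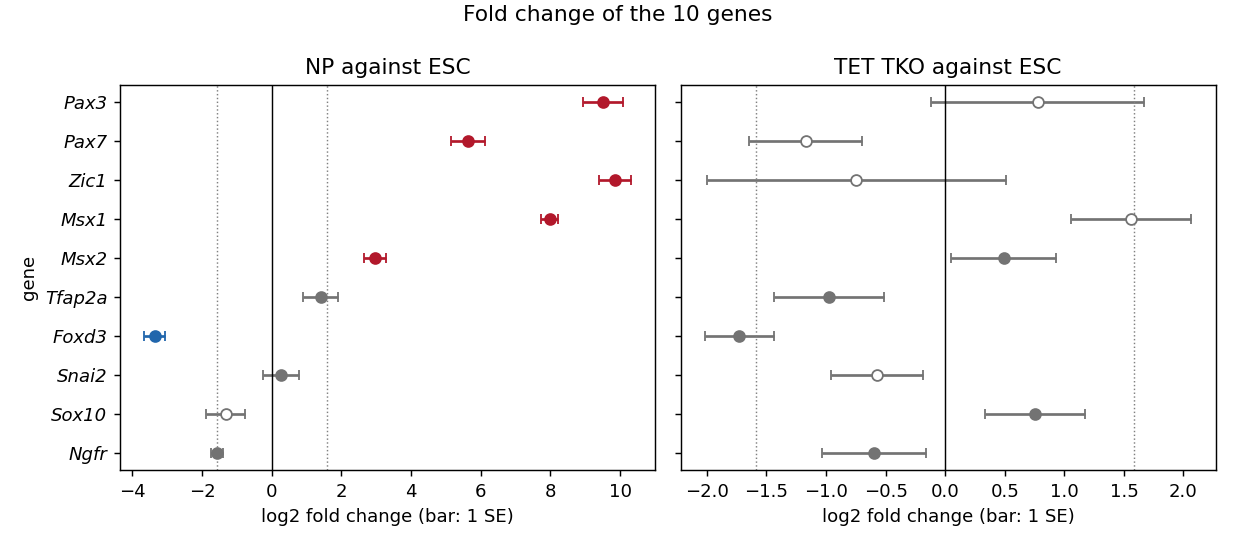
Log2 fold changes with 1 SE (edgeR) of the 10 genes in NPs against ESCs (left) and in TET TKO ESCs against ESCs (right; the axes differ in range); red and blue points were called higher and lower, open points did not pass the expression filter and come from the fit without it, and dotted lines mark 3-fold. The 5 red points of the left panel lie between 2.97 and 9.85 and Foxd3 at −3.35; no point of the right panel is coloured.

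By level per length, the order in NPs was Msx1 (29.5 ± 5.38 RPKM, SD, n = 3), Zic1 (10.6 ± 2.49), Pax3 (9.44 ± 3.94), Pax7 (7.51 ± 4.40), Msx2 (6.44 ± 1.88), Ngfr (5.0 ± 0.853), Tfap2a (2.07 ± 0.889), Foxd3 (2.02 ± 0.818), Snai2 and Sox10. Of neighbours in this order, only Msx1 and Zic1, Ngfr and Tfap2a, and Snai2 and Sox10 had ranges over the libraries that did not overlap. Zic1, Pax3, Pax7 and Msx2 overlapped each other, as did Pax7 and Msx2 with Ngfr, while Zic1 and Pax3 lay above Ngfr in every library. In ESCs, Foxd3 (20.3 ± 4.01 RPKM) and Ngfr (14.7 ± 1.17) stood apart from each other and from all other members, the highest of which was Msx2 at 0.814 ± 0.247 RPKM. The summed RPKM of the 10 genes was 34.3 to 41.6 in ESCs and 69.6 to 76.8 in NPs, and 13.3 to 31.2 in TET TKO ESCs.

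The NP libraries differed from each other gene by gene. Pax7 varied 3.39-fold between the highest and the lowest NP library, Pax3 2.07-fold, Msx2 1.80-fold, Zic1 1.56-fold and Msx1 1.41-fold. Replicate 1 had most Pax7, Msx2, Tfap2a, Foxd3 and Ngfr, replicate 2 most Msx1, Snai2 and Sox10, and replicate 3 most Pax3. No NP library was thus highest or lowest for all 5 genes that rose.

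**Figure D3:**
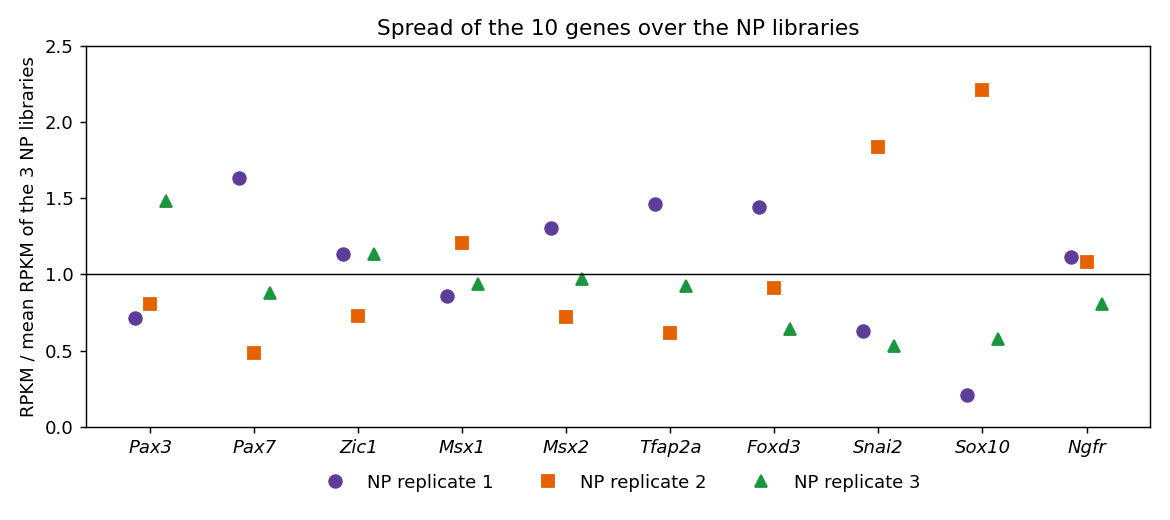
RPKM of each gene in each NP library divided by its mean over the 3 NP libraries; symbols mark the replicates and the line marks the mean. Replicate 2 lies lowest for Pax7, Zic1, Msx2 and Tfap2a and far above the others for Snai2 and Sox10.

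Genes related by role were counted from lists. As with the members, many entered the test only through NPs, being under 1 RPKM in every ESC library. This held for 3 of the 3 border genes that rose, 5 of the 7 specifier, 4 of the 8 migration, 2 of the 2 derivative, 4 of the 5 dorsal and 2 of the 3 neurotrophin genes that rose, so the counts and medians are descriptions and are not read against the background. Of 13 further neural plate border genes, 11 were tested, 3 rose and 3 fell. The median log2 fold change of the 11 was −0.04, beside 0.03 for all tested genes. Msx3, a homeobox gene of the dorsal neural tube, rose from 0.122 to 40.7 RPKM (log2 fold change 8.31). Tfap2b, an AP-2 gene, was at 0 counts in the 3 ESC libraries and at 629, 413 and 695 counts in NPs, at least 570-fold higher when 3 counts are taken as the limit over the ESC group. Tfap2c, another AP-2 gene, fell from 20.2 to 1.53 RPKM (log2 fold change −3.73), while Zic2 was at 9.68 RPKM in ESCs and 9.53 RPKM in NPs. The AP-2 family thus had a member that rose and a member that fell.

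Of 13 further crest specifier genes, 10 were tested, 7 rose and 0 fell by edgeR's quasi-likelihood test (median log2 fold change 2.47), and 8 rose and 0 fell by DESeq2. At an unadjusted p under 0.05, 8 of the 10 differed, beside 67.5% of all tested genes. Of the 10, 5 passed the filter only through NPs, so these shares are not compared. The largest rises were those of the orphan nuclear receptor genes Nr2f1 (0.0220 to 45.0 RPKM; 10.93) and Nr2f2 (0.0168 to 9.998 RPKM; 9.12), which are also expressed widely in neural progenitors. Sox9 rose from 0.0578 to 20.6 RPKM, whereas Snai1 stayed at 3.15 and 3.32 RPKM and Prrx1 was under the filter. Of 13 migration genes, 11 were tested and 8 rose (median 2.95). The largest rises were those of the endothelin receptor gene Ednrb (0.0498 to 33.5 RPKM, 9.31) and the cadherin gene Cdh6 (0.108 to 8.61 RPKM, 6.28). The 3 tested without a call were Erbb3 (10.6 to 6.12 RPKM), Epha4 (6.35 to 4.66 RPKM) and Nrp2 (4.38 to 6.15 RPKM). Cdh7 and Itga4 were under the filter.

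Of 13 genes of crest derivatives such as autonomic neurons, pigment cells and glia, 6 passed the filter, 2 rose and 1 fell (median 1.68). Ret, a receptor of enteric and motor neurons, rose from 0.579 to 4.10 RPKM. Mitf, the regulator of pigment cells, fell from 1.80 to 0.192 RPKM. The glial gene S100b had 0 counts in the 3 NP libraries, and Dct and Dbh stayed under 1 RPKM.

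Of 13 genes of the dorsal spinal cord and roof plate, 10 were tested and 5 rose (median 3.24). Wnt1, a signal of the dorsal midline, went from 0.0123 to 25.0 RPKM (log2 fold change 10.72). Olig3, a factor of dorsal progenitors, went from 0.303 to 10.997 RPKM (5.16). The other 5 tested genes were not called, among them Lmx1a (0.716 RPKM in ESCs, 0.901 in NPs) and Rspo1 (2.63 and 2.91). Gdf7, Atoh1 and Lhx9 stayed under the filter. Of 12 neurotrophin ligands, receptors and partners, 9 were tested and 3 rose (median 0.31). Ntrk2, the receptor of BDNF, rose from 0.198 to 2.48 RPKM (3.62) and Sort1, a partner of p75, from 5.37 to 36.8 RPKM (2.76), in the opposite direction to Ngfr.

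**Figure D4:**
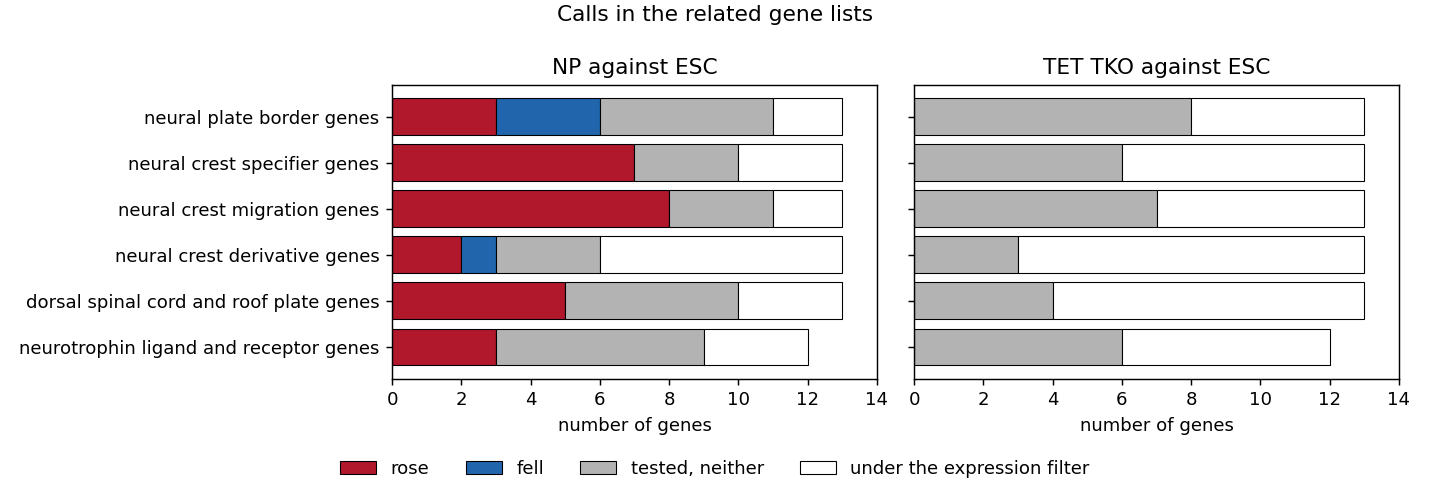
Number of genes of each related list that rose, fell, were tested without a call or stayed under the expression filter, for NPs (left) and TET TKO ESCs (right) against ESCs. In NPs, 7 specifier and 8 migration genes rose, of which 5 and 4 passed the expression filter only through NPs; in TET TKO ESCs no gene of these lists was called.

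Markers of the other cell types that NP cultures could hold moved as follows. Of those that rose, 6 neural progenitor, 4 neuron, 1 mesoderm and 4 endoderm markers reached 1 RPKM only in NPs, the same limit on their counts. All 8 neural progenitor markers rose, led by Hes5 and Pou3f2, with a summed level of 6.26 to 7.96 RPKM in ESCs and 173 to 326 RPKM in NPs. All 8 pluripotency markers fell, led by Tdgf1 and Zfp42, from 2443 to 2520 RPKM to 8.12 to 29.8 RPKM. Of the 8 neuron markers 5 rose, led by Dcx and Snap25, and 1, Stmn2, fell, and their sum was 124 to 138 RPKM in ESCs and 81.3 to 194 RPKM in NPs. Only 2 neuron markers rose without ESC replicate 1, ESC replicate 2, NP replicate 1 or NP replicate 3.

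Pax3 and Pax7 are also muscle precursor genes. Of 9 mesoderm and muscle markers 3 were tested, Meox1 rose and Eomes fell, and their sum was 3.81 to 4.38 RPKM in ESCs and 5.87 to 26.3 RPKM in NPs. Meox1 lost its call when any 1 ESC library was left out (log2 fold change 4.48 to 4.74, edgeR adjusted p from 0.00122 to 0.00213). The muscle determination genes Myf5 and Myod1 had 0 counts in the NP libraries. Of 8 surface ectoderm markers 5 were tested, Krt18 and Krt8 rose and Grhl3 fell, with sums of 92.99 to 103 RPKM in ESCs and 405 to 477 RPKM in NPs, while the epidermal genes Krt5, Krt14 and Trp63 stayed at or below 0.211 RPKM in all NP libraries. Of 8 endoderm markers 6 were tested and 4 rose, led by Foxa2 and Sox17, and Hnf4a fell, with sums of 2.66 to 4.01 RPKM in ESCs and 19.8 to 24.8 RPKM in NPs, and Cer1 had 0 counts in NPs. Only 3 endoderm markers rose when any 1 library was left out. The part of such cells in the levels of the 10 genes was not tested.

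**Figure D5:**
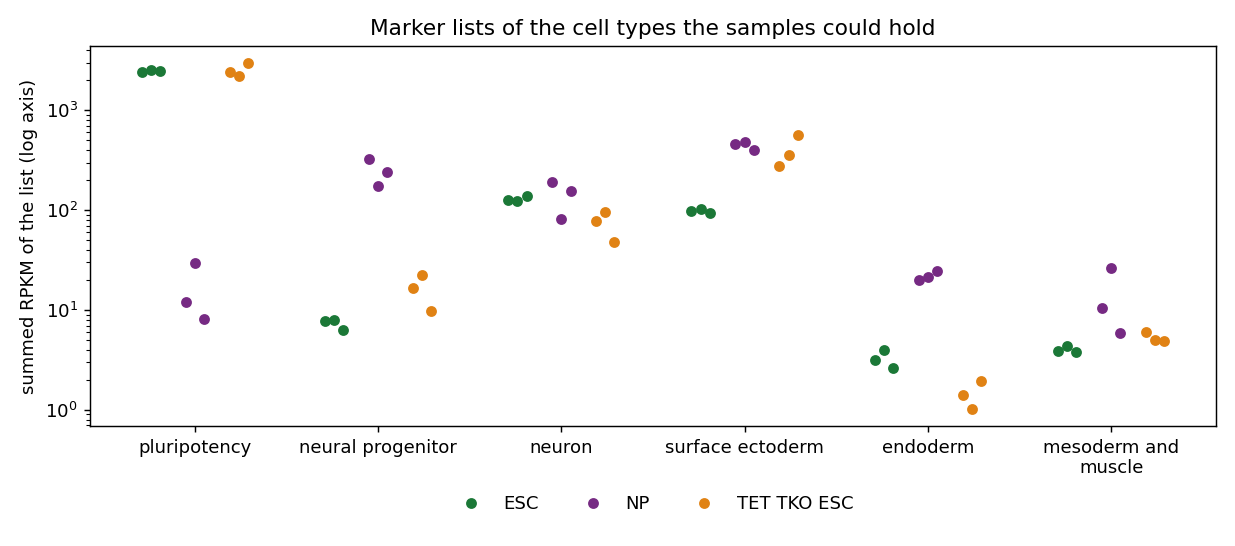
Summed RPKM (log axis) of the marker lists in each ESC, NP and TET TKO ESC library; points are libraries. The NP libraries have 173 to 326 RPKM of neural progenitor markers and at most 29.8 RPKM of pluripotency markers, and replicate 2 has the highest mesoderm sum, 26.3 RPKM.

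The comparison of TET TKO ESCs with ESCs gives the levels of the genes in stem cells without the TET enzymes, which oxidise methylated cytosine. It shares its 3 ESC libraries with the comparison above. Of 13939 tested genes 2.14% were called, 0.847% as higher and 1.29% as lower. Of the 10 members, Foxd3, Sox10, Tfap2a, Msx2 and Ngfr passed the filter and 0 were called by edgeR's quasi-likelihood test; 1 of the 5, Foxd3, had an unadjusted p under 0.05, as had 45.1% of all tested genes, and 1 was called by DESeq2, which called 6.53% of the genes. The median log2 fold change of the 5 was −0.60, beside 0.02 for all tested genes. Within these groups, Tfap2a reached 1 RPKM in 1 ESC library alone and Sox10 in 1 TET TKO library alone. The medians are therefore not compared. Leaving out 1 library left 50 to 294 called genes and 0 members.

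Foxd3 had 4.90, 9.78 and 5.33 RPKM in TET TKO ESCs (878, 1623 and 1068 counts), all below the 16.2 to 24.2 RPKM of the ESC libraries. The log2 fold change was −1.73 ± 0.29, a 3.31-fold difference, with an edgeR adjusted p of 0.0040 that missed the limit. It passed the limits with DESeq2 (adjusted p = 5.58e-08) and without the expression filter (edgeR adjusted p = 1.10e-05), so its call depends on the method. Side by side with NPs, Foxd3 was at 6.67 ± 2.70 RPKM in TET TKO ESCs and at 2.02 ± 0.818 RPKM in NPs, and these ranges did not overlap.

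Ngfr was spread widely over the TET TKO libraries, at 9.29, 18.2 and 4.25 RPKM, a 4.27-fold range that took in the ESC libraries. Its log2 fold change was −0.60 ± 0.44 (edgeR adjusted p = 0.322), and it moved to −1.22 without TET TKO replicate 2 and to −0.22 without replicate 3. Sox10 had a higher mean level than in the other groups, at 1.08, 0.470 and 0.761 RPKM against 0.242, 0.523 and 0.495 in ESCs. The ranges overlapped, with a log2 fold change of 0.75 ± 0.42 (edgeR adjusted p = 0.203).

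Msx2 was at 0.641, 1.16 and 1.92 RPKM and overlapped ESCs (log2 fold change 0.49 ± 0.44; edgeR adjusted p = 0.419). Without TET TKO replicate 3, its highest library, the log2 fold change was 0.03. Tfap2a was at 0.348, 0.518 and 0.408 RPKM, which overlapped the lowest ESC library (−0.98 ± 0.46; edgeR adjusted p = 0.140). Neither was separated from ESCs at this spread.

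The other 5 genes did not pass the filter, Snai2 because its highest ESC library, at 1.01 RPKM when all 9 libraries were scaled together, lay under the limit when only these 6 were. Their values come from the fit without the expression filter, in which 3.74% of 33796 genes were called and the median log2 fold change was 0.12. Msx1 had 110, 95 and 36 counts in TET TKO ESCs, or 0.461, 0.430 and 0.135 RPKM, against 0.0910 to 0.133 RPKM in ESCs, with only the third library close to the ESC range, with a log2 fold change of 1.56 ± 0.50 (edgeR adjusted p = 0.0306). Pax7 had 28, 13 and 53 counts, or 0.0620, 0.0311 and 0.105 RPKM, below every ESC library, with −1.17 ± 0.48 (edgeR adjusted p = 0.0944). Neither passed the limits. Snai2 was at 0.492, 0.579 and 0.40 RPKM (−0.57 ± 0.38; edgeR adjusted p = 0.371).

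The genes that rose most in NPs stayed near 0 in TET TKO ESCs. Pax3 had 5, 10 and 16 counts in 80704741 or more counts per library, with a ratio of summed counts to ESCs of 1.79 and a counting interval from 0.689 to 5.89. Zic1 had 4, 4 and 0 counts, a ratio of 0.577 with an interval from 0.155 to 2.62. A change within these intervals was not detectable at this depth.

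Among the related lists, edgeR called no border, specifier, migration, derivative, dorsal or neurotrophin gene in TET TKO ESCs at these limits, of 34 genes tested. At an unadjusted p under 0.05, 16 of the 34 differed, beside 45.1% of all tested genes, and DESeq2 called 1, the homeobox gene Dlx3, as higher. Of the 8 pluripotency markers Zfp42 fell, from 304 to 50.6 RPKM (log2 fold change −2.70; edgeR adjusted p = 7.59e-05). Of the 8 surface ectoderm markers 5 were tested and 0 were called by edgeR, against 2 by DESeq2, Krt8 and Krt18, and their sum was 278 to 563 RPKM in TET TKO ESCs. The sums of the neural progenitor markers (9.80 to 22.4 RPKM), mesoderm markers (4.86 to 6.02) and endoderm markers (1.03 to 1.94) are plotted with the marker lists.

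FOXD3 and PAX7 motifs were also among the designed fragments of the methylation assay, in which a bacterial DNA fragment with a WT or a scrambled (Sc) motif was inserted at 1 genomic site and its CpGs were read after bisulfite treatment. In the pool of premethylated fragments (+SssI) in ESCs, the fragment with the FOXD3 motif was methylated at 57.5% over 23 CpGs and its Sc partners at 70.9% and 65.8%, differences of −13.4 ± 11.7 and −8.31 ± 11.9 points (95% counting interval at the median read number). Compared only within runs that held both fragments, the differences were −2.92 and 3.93 points, with no interval of their own. For the PAX7 motif the pairs differed by 9.79 ± 11.7 and −26.1 ± 11.2 points in ESCs, and by −22.3 and −52.3 points within runs, so the first pair turned its direction. These within-run values come from 1 run each, and the second from 5 CpGs against 23 in the pooled value. In NPs without premethylation, all 4 differences lay between −2.66 and 5.09 points, on fragments methylated at 85.4% to 93.2%, and within runs between −3.21 and 12.75 points. In TET TKO ESCs (+SssI) the FOXD3 pairs differed by −14.9 ± 7.94 and −3.63 ± 9.10 points and the PAX7 pairs by −6.22 ± 10.3 and 21.5 ± 18.4 points. Within runs the FOXD3 pairs differed by −10.85 and −2.75 points and the PAX7 pairs by −4.57 and 12.38 points, again with no interval of their own. The counting intervals leave out the spread between fragments. The means of the 31 Sc fragments ran from 42.3% to 82.8% in the ESC pool (SD 10.7). They ran from 3.70% to 95.6% in the NP pool (SD 15.9) and from 70.1% to 98.0% in the TET TKO pool (SD 7.98). A difference beyond its counting interval is therefore not read as an effect of the motif. Each pool is 1 sample, so these are comparisons of fragments within a pool, with no replicate.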

How the data were processed

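RNA was sequenced from 3 ESC, 3 NP and 3 TET TKO ESC libraries, made with a stranded kit. The authors aligned the reads with STAR to GRCm38 and deposited raw counts per gene from featureCounts, made without regard to strand. The submitters' processing notes name STAR 2.6.1b and Trimmomatic 0.38. For the fragment pools, the authors deposited the total read counts and the methylated read counts of every CpG and run. Here, counts were scaled by TMM and compared with the quasi-likelihood F-test of edgeR 4.0.16 (R 4.3.3), between the 2 groups of a comparison, over genes with at least 1 RPKM in at least 1 of their libraries. The p-values were adjusted by Benjamini-Hochberg over all tested genes, and the limits (adjusted p under 0.001, 3-fold) are those of the study. The SE is the log2 fold change divided by the square root of its F. The fit was tested on simulated data. DESeq2 1.42.0 was an alternative, as were other filters, scalings and limits, a replicate block and leaving out each library.

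The 10 genes and all lists were chosen with earlier results of these data known. All 10 were named. From each list, up to 2 called genes were named for the size of their rise and up to 2 for that of their fall, provided that no library of the group with more expression had under 10 counts. Other list genes were chosen after their values were seen. Some genes of the lists are counted but not reported here by name. Ngfrap1 was matched through its synonym, Bex3. Methylation is the mean over CpGs with at least 10 reads, with reads summed over runs, in 3 pools. Pools whose table holds runs of 2 samples were not used here. Exons were those of the GENCODE annotation of GRCm38. Levels, intervals and figures came from Python 3.11.15 (numpy 2.4.6, pandas 2.3.3, scipy 1.17.1, matplotlib 3.10.9).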

Additional observations from a re-analysis of the deposited data

How the results depend on the processing

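In NPs against ESCs, 6 members were called, and 4 to 8 under the alternatives. Foxd3, Msx2 and Pax7 were called under each of them; a filter of 10 counts in every library left Pax3, Zic1, Msx1 and Sox10 untested. The count of all genes was 3396, against 5281 without the expression filter, 2262 with at least 10 counts in every library and 9738 at an adjusted p under 0.05 with no limit on the fold. Leaving out 1 library gave 6 to 7 members and 2471 to 3384 genes. The log2 fold change of Snai2, 0.27, ran from −0.52 to 0.57 when 1 library was left out, and was below 0 only without NP replicate 2; no other member changed direction under the alternatives tried. In TET TKO ESCs against ESCs, 0 members were called, and 1, Foxd3, with DESeq2, without the filter, with the replicate block and at an adjusted p under 0.05. The count of all genes was 298, against 910 with DESeq2, 1263 without the filter, 589 with the replicate block and 4677 at an adjusted p under 0.05. Leaving out 1 library gave 0 to 0 members and 50 to 294 genes: 50, 58 and 70 without ESC replicates 1, 2 and 3, and 92, 165 and 294 without TET TKO replicates 1, 2 and 3. At the median depth of ESCs, reached by random thinning of the deeper libraries, there were 0 members and 293 genes. The causes were not tested.

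The labels give replicates only a number. Same-numbered libraries had correlations of their deviations across genes of −0.08, 0.0041 and −0.19 in NPs and of −0.13, 0.47 and 0.28 in TET TKO ESCs, so the numbers were not taken to pair them. With the replicate block, 6 members and 3359 genes were called in NPs, and 1 member (Foxd3, edgeR adjusted p = 0.000306) and 589 genes in TET TKO ESCs. List counts under these settings were chosen after seeing the data. Every CpG in the 12 fragment differences had at least 20 reads. A minimum of 1 or 20 reads therefore kept the same CpGs and could not move any difference. The comparison within runs moved 4 by more than the counting interval of the pooled value. Depth limits Pax3 and Zic1 in ESCs, which rest on 5 and 4 counts.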
